A study of Homo sapiens with 120 samples.

Results

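Dmr-PERK cells given the dimerizer AP20187 for 24 h were compared with the same cells given thapsigargin for 24 h, over all genes. The comparison rests on 6 of the 120 libraries of the series: the 3 labelled with dimerizer at 24 h and the 3 labelled with 100 nM thapsigargin at 24 h in the Dmr-PERK line. Of the 57665 genes in the tables, 26998 had enough counts to be tested. The cells are U2OS, a human osteosarcoma line, carrying a stably expressed fusion of the eIF2α kinase domain of mouse PERK and the DmrB dimerization domain, which AP20187 brings together. The label gives the genotype of every library as WT, and all 6 libraries carry the construct. Untreated Dmr-PERK wells at 24 h (3 libraries) gave the control level, and U2OS cells without the construct (Parental), untreated or with 100 nM thapsigargin at 24 h (3 libraries each), were set beside them. The series text gives the dimerizer as 0.2 nM, where the sample labels carry a figure that rounds to this, and states that each agent's dose was picked to raise phosphorylated eIF2α by a similar amount. No measurement of that phosphorylation was analysed here, so the 2 agents are compared at these labelled doses only. Whether the Dmr-PERK line is 1 clone, and whether untreated wells received vehicle, was not stated in the labels or series text.

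PERK sits in the membrane of the endoplasmic reticulum (ER) and phosphorylates eIF2α, which lowers bulk translation and raises translation of the transcription factor ATF4. This is the integrated stress response, and ATF4 and its partner CHOP (DDIT3) raise genes of amino acid supply, redox balance and cell fate. Thapsigargin blocks SERCA, the pump that fills the ER with calcium, and the ER stress that follows engages not only PERK but also ATF6 and IRE1, whose targets are the chaperones and secretory machinery of the ER. The comparison sets dimerization of the PERK fusion against an agent that engages PERK together with the other sensors. Whether dimerizer acted through the fusion alone was not tested here.

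Library totals were 16.6 to 28.9 M estimated counts for the 6 libraries and 12.9 to 56.5 M over all 120. Values per library are CPM, counts scaled to a common library total, with scaling by TMM (trimmed mean of M-values), and a difference is log2 of dimerizer minus thapsigargin, so that positive values are higher with dimerizer. The ± beside a difference is its standard error, and calls were made at adjusted p below 0.05, taken over the 26998 genes. In a principal component view of the 12039 genes of higher count, the first component (82.5% of the variance) placed untreated wells at -53.1 to -51.0, dimerizer wells at 9.31 to 10.8 and thapsigargin wells at 41.4 to 41.9. The second (14.4%) set dimerizer wells, at 22.34 to 22.79, apart from untreated (-8.795 to -6.808) and thapsigargin wells (-16.85 to -13.52). The share of counts from mitochondrially encoded genes was 6.10% to 6.31% in untreated wells; it was 5.33% to 5.54% in dimerizer wells and 4.79% to 4.91% in those given thapsigargin. Of 8 osteoblast and mesenchymal markers, SP7 and IBSP were under 1 TPM, a length-scaled level, in all 6 libraries. The 8 together summed to 1620 to 1660 TPM with dimerizer, 1010 to 1040 with thapsigargin and 2860 to 2950 untreated, most of it VIM (means of 1500, 924 and 2560 TPM). RUNX2, SPP1, COL1A1 and VIM were higher with dimerizer than with thapsigargin (1.27, 1.04, 0.98 and 0.86). ALPL went the other way, with means of 8.14, 13.2 and 6.02 TPM in that order of groups (-0.38, adjusted p = 0.000245), and BGLAP did not pass (1.48, 2.54 and 1.5 TPM; -0.66, adjusted p = 0.0613). Of 8 blood markers, 7 were under 1 TPM in all 6 libraries and CD68 was not, with sums of 8.97 to 13.4, 10.1 to 12.8 and 5.25 to 5.61 TPM in that order of groups. The 9 epithelial markers summed to 576 to 594 TPM with dimerizer, 472 to 485 with thapsigargin and 643 to 668 untreated, with KRT5, KRT14 and KRT19 under 1 TPM in the 6 treated libraries. Untreated wells had means of 1.26 TPM for KRT5 and 4.99 for KRT14. KRT18 made up most of each sum (means of 488, 384 and 487 TPM in that order of groups). ESRP1 went the other way, with 0.132 TPM untreated, 5.65 with dimerizer and 8.64 with thapsigargin (-0.47 between agents, adjusted p = 0.000113). CDH1, EPCAM, KRT8 and KRT18 were higher with dimerizer than with thapsigargin (0.45, 0.48, 0.27 and 0.50), and CLDN4, KRT5 and KRT14 did not pass. A change in the make-up of the cells and a change in RNA per cell cannot be told apart in these bulk samples, and the part of these marker differences in the results was not tested.

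EIF2AK3, the PERK gene itself, was read first because the construct carries a PERK kinase domain. It had 971, 1009 and 966 CPM with dimerizer, 658, 656 and 612 with thapsigargin and 945, 898 and 902 in untreated wells. The dimerizer wells were thus above the thapsigargin wells, which were the lowest of the 3 groups, and the difference was 0.61 ± 0.04 (adjusted p = 6.89e-24). FKBP1A, from which DmrB derives, differed in the same direction by 0.41 ± 0.04 (adjusted p = 1.37e-18). In Parental cells, which lack the construct, thapsigargin was above untreated for EIF2AK3 by 1.85 (adjusted p = 3.61e-52), whereas in Dmr-PERK cells the difference from untreated was -0.51 (adjusted p = 8.05e-20). Untreated wells averaged 27.6 CPM of EIF2AK3 in Parental cells and 915 in Dmr-PERK cells. How far reads of the construct, with its mouse kinase domain, were assigned to the human genes was not tested. The EIF2AK3 and FKBP1A values of Dmr-PERK cells therefore need not be levels of the endogenous transcripts.

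At 24 h 10471 of the 26998 genes differed between the agents (38.8%). Of these, 6337 were higher with dimerizer (23.5% of those tested) and 4134 were lower (15.3%). Those 2 shares are the reference for every list count between the agents at 24 h given below. Against untreated wells at 24 h, 25.0% of genes were higher and 23.1% lower with dimerizer. With thapsigargin 27.5% were higher and 27.5% lower. These are the reference for list counts against untreated in Dmr-PERK cells. Under upper quartile scaling 45.8% of the called genes were higher with dimerizer, in place of 60.5%, so the balance between the 2 directions depends on how libraries are scaled. With limma on log2(TPM + 1) that share was 36.1%, and with log2(TPM + 0.1) it was 37.9%, where the median over all genes moved from 0 to -0.11. Most called differences were small: 807 genes were called and at least 2-fold higher with dimerizer (2.99%) and 1060 were called and at least 2-fold higher with thapsigargin (3.93%). In 12342 genes (45.7%) the 3 libraries of an agent did not overlap with the 3 of the other. Among the 807, 324 showed no overlap while averaging 5 CPM or more with dimerizer, and among the 1060, 274 did so with thapsigargin.

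**Figure D1:**
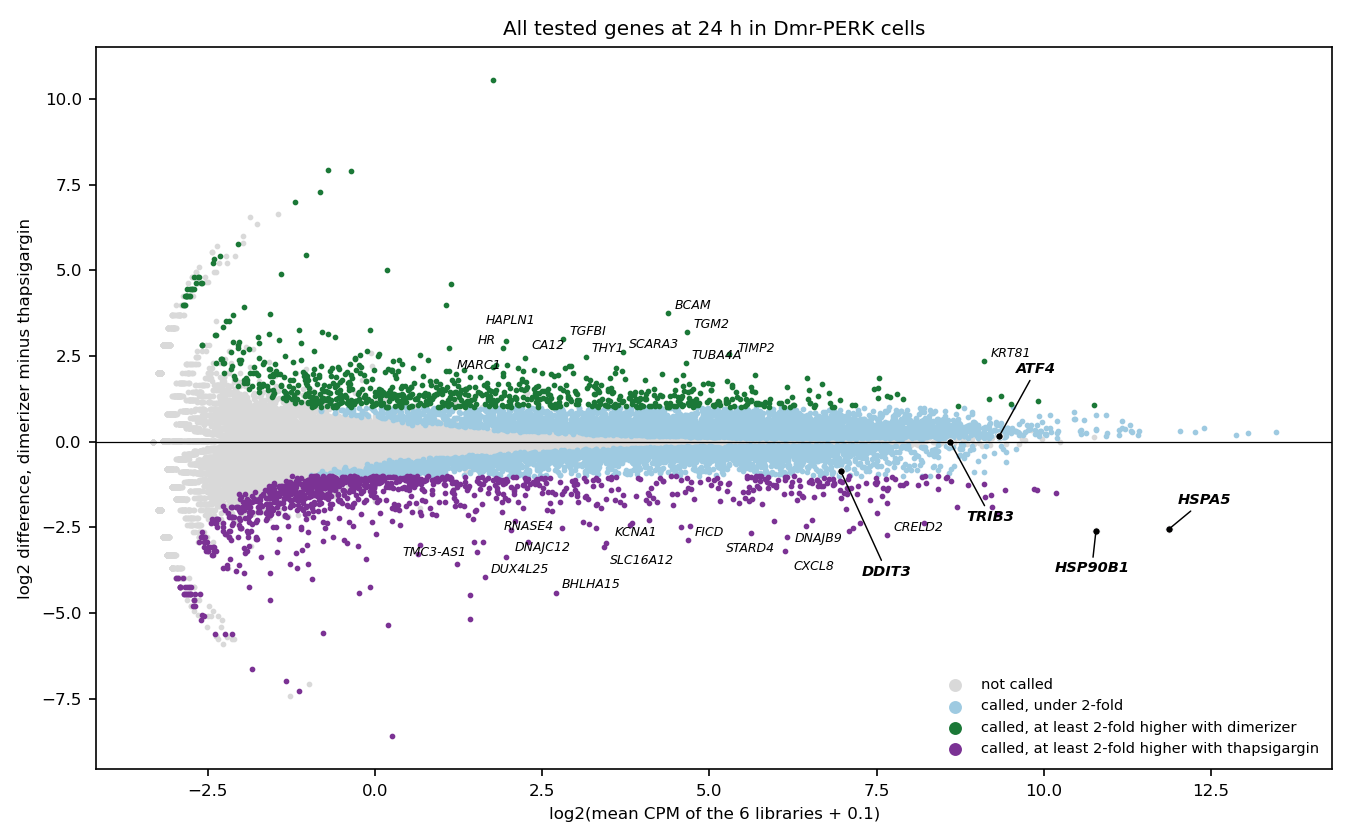
Each point is 1 of the 26998 tested genes, with log2 of its mean CPM over the 6 libraries plus 0.1 on the x axis and the log2 difference of dimerizer minus thapsigargin at 24 h on the y axis. Coloured points passed the test, and the labelled ones are the 12 at each end with 5 panel genes in bold, tied to their points by lines (clone-type names are not labelled): HSPA5 and HSP90B1 lie among the most abundant genes and more than 2-fold lower with dimerizer, while ATF4 and TRIB3 lie near 0.

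Most ATF4 and CHOP targets rose over untreated with both agents, and between the agents none of the 22 differed by 2-fold in the fit of counts. ATF4 (chr22:39519695-39522685), the transcription factor of this response, had 670.5, 698 and 684 CPM with dimerizer, 614, 622 and 587 with thapsigargin and 335, 318 and 347 untreated. Both treated groups lay above untreated, dimerizer by 1.04 (adjusted p = 2.3e-47) and thapsigargin by 0.87 (adjusted p = 1.25e-41). These 2 comparisons share the untreated libraries, here and wherever both are given. Between the agents ATF4 differed by only 0.17 ± 0.03 (adjusted p = 1.07e-05), a call that limma on log2 TPM does not make (0.02, adjusted p = 0.523 with a pseudocount of 1). TRIB3 (chr20:362835-397559), a pseudokinase induced by ATF4 and CHOP, had 389, 386 and 385 CPM with dimerizer, 395, 387 and 379 with thapsigargin and 25.2, 25.2 and 25.8 untreated. Its treated libraries overlapped, the difference was 0.00 ± 0.06 (adjusted p = 1), and the 95% interval ran from -0.11 to 0.11, against a rise over untreated of 3.93 with dimerizer. In a fit of the 6 libraries alone TRIB3 was called slightly lower with dimerizer (-0.07, adjusted p = 0.0176).

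CHOP had the lowest difference of this group. DDIT3 had 83.3, 92.2 and 89.4 CPM with dimerizer, 159.8, 168 and 156 with thapsigargin and 11.3, 9.99 and 11.0 untreated. Every thapsigargin library was above every dimerizer library, and both were far above untreated. The difference was -0.87 ± 0.06 (adjusted p = 8.69e-24). On TPM the gap in DDIT3 was slightly more than 2-fold, with means of 169.5 with dimerizer and 345.2 with thapsigargin. PPP1R15A (GADD34, chr19:48872392-48876057), which directs a phosphatase back onto eIF2α, had 169.9, 167 and 161 CPM with dimerizer and 230.2, 236 and 224 with thapsigargin, again without overlap, a difference of -0.47 ± 0.05 (adjusted p = 1.13e-12). The death receptor TNFRSF10B was also lower with dimerizer, at 182, 180.4 and 173 against 275, 275 and 259.8 CPM, a difference of -0.60 ± 0.04 (adjusted p = 5.9e-22). The opposite direction was seen for CHAC1, a glutathione-degrading enzyme, with 76.6, 73.8 and 75.5 CPM under dimerizer and 59.0, 57.7 and 53.8 under thapsigargin (0.41 ± 0.07, adjusted p = 3.07e-07). DDIT4, which restrains mTORC1, had 249.7, 260.1 and 258 against 140.1, 141 and 136 CPM (0.88 ± 0.07, adjusted p = 2.85e-21), the largest difference in favour of dimerizer in the list.

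Of the 22 ATF4 and CHOP targets listed, 7 were higher with dimerizer (23.5% over all genes), 8 were lower (15.3% over all genes) and 7 did not pass, with a median of -0.07 beside 0 over all genes tested. Against untreated wells 19 of the 22 rose and 1 fell with dimerizer, where 25.0% of all genes rose and 23.1% fell, and 18 rose and 3 fell with thapsigargin, where 27.5% rose and 27.5% fell. ATF3, CEBPG, GDF15 and VLDLR, all at more than 2-fold their untreated level with both agents, did not pass between agents: their differences were -0.10, -0.05, 0.00 and 0.03, with 95% intervals of -0.21 to 0.02, -0.14 to 0.04, -0.15 to 0.15 and -0.07 to 0.14. DDIT3 and DDIT4 stood at the 2 ends of the list, and with log2(TPM + 1) 4 were higher and 10 lower.

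**Figure D2:**
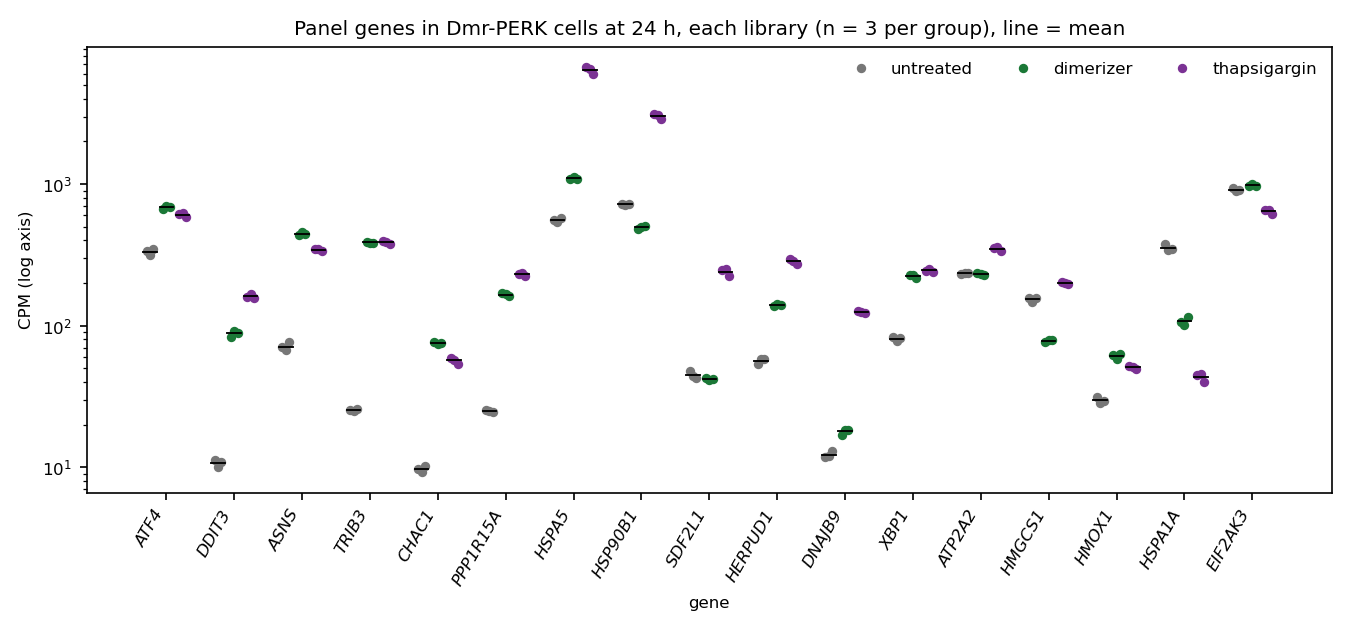
Each point is 1 library at 24 h in Dmr-PERK cells (3 per group, line at the mean), with CPM on a log axis for the 17 panel genes. TRIB3 and XBP1 lie at nearly the same height in the 2 treated groups, DDIT3 and HSPA5 rise in both but further with thapsigargin, and HMGCS1 falls below untreated with dimerizer and lies above it with thapsigargin.

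Genes of amino acid supply were mostly above untreated with both agents: of 17 enzymes 16 rose with dimerizer and 15 with thapsigargin, and of 15 transporters 11 and 12 rose. ASNS (chr7:97852118-97872542), asparagine synthetase, had 438, 457 and 444 CPM with dimerizer, 348, 346 and 337 with thapsigargin and 70.1, 66.9 and 76.2 untreated, a difference of 0.38 ± 0.04 (adjusted p = 8.33e-16). PHGDH, the first enzyme of serine synthesis, had 364, 375 and 383 CPM with dimerizer, 195, 191 and 186 with thapsigargin and 151, 150.3 and 151 untreated. Thapsigargin lay only 0.34 above untreated for PHGDH while dimerizer lay 1.31 above it, and the agents differed by 0.97 ± 0.03 (adjusted p = 1.59e-44). SHMT1, a cytosolic folate-cycle enzyme, differed by 1.03 ± 0.07 (adjusted p = 5.05e-25) from a different base, since both agents were below untreated (-0.55 and -1.58). Of the 17 amino acid and folate enzymes 11 were higher with dimerizer, 4 were lower (ALDH1L2, GOT1, CTH and BCAT1, at -0.47 to -0.10) and the median was 0.17. With log2(TPM + 1) 6 were higher and 5 lower.

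Of the 20 cytosolic tRNA synthetases, which charge tRNAs with amino acids, 15 were higher and 2 lower with dimerizer by counts, with a median of 0.16, but with log2(TPM + 1) 2 were higher, 3 were lower and the median was -0.03. MARS had 608, 625 and 621 against 483, 472 and 449 CPM (0.40 ± 0.03, adjusted p = 7.5e-23), a call that does not hold on TPM (0.10, adjusted p = 0.201). WARS, the tryptophan enzyme, was lower with dimerizer, at 165, 161 and 164 against 249.7, 257 and 241 CPM and 40.6, 34.2 and 37.3 untreated (-0.61 ± 0.05, adjusted p = 8.19e-21). QARS, the glutamine enzyme, had 119, 124 and 123 CPM with dimerizer, 80.0, 85.5 and 76.3 with thapsigargin and 191, 206 and 191 untreated, so that both agents lay below untreated, thapsigargin further (0.60 ± 0.04, adjusted p = 7.33e-23).

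Among 15 amino acid transporters 3 were higher and 6 lower with dimerizer (23.5% and 15.3% over all genes), with a median of -0.12. SLC7A11, the cystine importer, had 262, 238 and 232 CPM with dimerizer, 412, 408 and 394 with thapsigargin and 54.5, 49.7 and 53.9 untreated, and differed by -0.73 ± 0.05 (adjusted p = 1.43e-23). SLC7A5, a leucine importer, went the other way, with 699, 672 and 664 against 503, 484 and 466 CPM (0.49 ± 0.04, adjusted p = 1.57e-20). SLC36A4 had 23.1, 23.0 and 25.7 against 32.4, 32.5 and 32.0 CPM (-0.44 ± 0.06, adjusted p = 1.86e-10), where dimerizer did not differ from untreated by the test (-0.07, adjusted p = 0.389). Among 13 genes of the eIF2 pathway, 10 were higher and 0 lower with dimerizer (median 0.16), and with log2(TPM + 1) 5 were higher and 1 was lower. EIF2AK4 (GCN2), the eIF2α kinase that senses uncharged tRNA, gave the largest of these, 102, 106 and 103 against 73.2, 74.7 and 66.0 CPM (0.55 ± 0.04, adjusted p = 3.79e-23). EIF2B1 and EIF2B5, subunits of the exchange factor that phosphorylated eIF2α inhibits, differed by 0.35 ± 0.04 (adjusted p = 6.69e-11) and 0.29 ± 0.04 (adjusted p = 6.84e-10).

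The folding machinery of the ER lumen had the lowest median of the 34 lists. HSPA5 (BiP, chr9:125234853-125241330, ENSG00000044574.7), the main Hsp70 of the ER and the protein whose release activates the stress sensors, had 1084, 1124 and 1078 CPM with dimerizer, 6683, 6527 and 5987 with thapsigargin and 561, 543 and 577 untreated. Thapsigargin libraries were 5.84-fold above dimerizer libraries with no overlap (-2.55 ± 0.04, adjusted p = 1.01e-72). Dimerizer was itself above untreated, by 0.97 (adjusted p = 5.71e-40), and thapsigargin by 3.51 (adjusted p = 5.18e-84). On the TPM scale, which accounts for transcript length, HSPA5 ranked 33rd of all genes with thapsigargin, 297th with dimerizer and 590th untreated. HSP90B1 (GRP94), the Hsp90 of the ER, had 485, 501 and 507 CPM with dimerizer, 3109.9, 3063 and 2869.5 with thapsigargin and 721, 712 and 721 untreated. For HSP90B1 dimerizer was the lowest group, its difference from untreated was -0.53 (adjusted p = 5.7e-19), and the agents differed by -2.60 ± 0.05 (adjusted p = 3.43e-69).

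Every one of the 18 ER chaperones tested was lower with dimerizer than with thapsigargin (15.3% over all genes), 16 of them by at least 2-fold, with a median of -1.80 beside 0 over all genes and a range from -2.80 to -0.52. Their 18 sets of libraries did not overlap, where 45.7% of all genes had no overlap. DNAJB9 (ERdj4), a co-chaperone of BiP, had 17.0, 18.2 and 18.5 against 127, 125 and 122 CPM (-2.80 ± 0.05, adjusted p = 2.1e-66), and CRELD2 (chr22:49918167-49927540), a secreted ER stress protein, 50.3, 54.2 and 53.6 against 363, 360.2 and 332 (-2.74 ± 0.07, adjusted p = 1.95e-57). SDF2L1, another BiP partner, had 42.7, 41.6 and 41.9 CPM with dimerizer, 249, 251 and 224 with thapsigargin and 47.6, 44.2 and 43.0 untreated, and here dimerizer did not differ from untreated by the test (-0.10, adjusted p = 0.377), while the agents differed by -2.52 ± 0.08 (adjusted p = 9.17e-49). HYOU1, the exchange factor for BiP, had 244, 238 and 226 against 1048, 1048 and 976 CPM (-2.12 ± 0.04, adjusted p = 8.02e-72), and CALR, the lectin chaperone calreticulin, 521, 528 and 518 against 1427, 1414 and 1334 (-1.41 ± 0.02, adjusted p = 2.04e-70). Against untreated wells the list split with dimerizer, 9 of 18 higher and 6 lower (25.0% and 23.1% over all genes), with a median of 0.08. With thapsigargin 17 were higher and 1 was lower (27.5% and 27.5% over all genes), with a median of 1.92. The members above untreated with dimerizer included HSPA5 (0.97), HYOU1 (0.68) and DNAJB9 (0.54). Those below included MANF, a secreted stress factor (-0.71), HSP90B1 (-0.53) and CALR (-0.50).

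The promoters of 5 genes of ER folding and its control are shown because they hold the letters of the ER stress response element (ERSE), which ATF6 with NF-Y is known to bind. They were picked from the panel and from the ER chaperone and disulfide isomerase lists by adjusted p, up to 5. HSP90B1 and CANX, whose match lies in an annotated exon, and ERO1B, which came after the 5, are not shown. These 5 genes rose over untreated with thapsigargin, and all but XBP1 were at least 2-fold higher with it than with dimerizer (PDIA6, an isomerase, by -1.55 ± 0.05 (adjusted p = 5.57e-46)). The motif searched was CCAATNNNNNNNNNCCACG on either strand in the 250 bases before each RefSeq start (GRCh38.p14); none of its matches overlapped with another motif searched. Sequences run 5′ to 3′ in the direction of the gene, in lower case, with the CCAAT and CCACG ends in capitals, or ATTGG and CGTGG where the match is on the other strand. Stretches that GENCODE 29 annotates as exon were left out. The windows printed lie at chr9:125241344-125241593 (HSPA5, minus strand, match 48 to 66 bases before the start), chr19:12938359-12938577 (CALR, plus strand, 207 to 225 bases), chr22:49918459-49918633 (CRELD2, plus strand, 62 to 80 bases, inside the annotated span of CRELD2 but in no exon), chr2:10812845-10813035 (PDIA6, minus strand, 68 to 86 bases, inside the span of PDIA6 but in no exon) and chr22:28800598-28800682 (XBP1, minus strand, 34 to 52 bases).
HSPA5: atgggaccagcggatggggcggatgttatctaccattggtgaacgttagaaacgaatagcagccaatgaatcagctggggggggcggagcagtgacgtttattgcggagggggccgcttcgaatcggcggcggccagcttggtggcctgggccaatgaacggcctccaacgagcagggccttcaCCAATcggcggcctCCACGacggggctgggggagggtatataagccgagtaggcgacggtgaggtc
CALR: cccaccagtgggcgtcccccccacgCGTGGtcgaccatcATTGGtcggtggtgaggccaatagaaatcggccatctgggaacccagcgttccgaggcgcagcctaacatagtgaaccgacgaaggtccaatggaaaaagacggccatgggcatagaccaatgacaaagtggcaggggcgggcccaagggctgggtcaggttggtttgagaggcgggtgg
CRELD2: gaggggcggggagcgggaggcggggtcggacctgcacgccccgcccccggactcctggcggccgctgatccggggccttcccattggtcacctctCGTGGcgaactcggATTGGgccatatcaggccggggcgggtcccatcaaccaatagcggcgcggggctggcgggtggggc
PDIA6: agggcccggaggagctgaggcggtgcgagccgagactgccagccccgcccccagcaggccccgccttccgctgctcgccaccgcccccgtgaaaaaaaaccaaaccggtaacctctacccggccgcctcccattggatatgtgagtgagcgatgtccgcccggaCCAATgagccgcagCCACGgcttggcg
XBP1: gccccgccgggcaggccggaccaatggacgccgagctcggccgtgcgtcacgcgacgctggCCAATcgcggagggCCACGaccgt

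ERSE letters stood in 26 of 35116 RefSeq windows (0.074%) and in 20 of the 15232 tested genes that have a window (0.131%). Among genes called at least 2-fold higher with thapsigargin, 11 of 555 held them (1.98%): HSPA5, HSP90B1, CALR, CANX, CRELD2, PDIA6, ERO1B, SERP1, FICD, TRIM5 and NLRP4. Among genes called at least 2-fold higher with dimerizer, 0 of 473 did. Of the 11, NLRP4 had very few counts, averaging 0.032 CPM with dimerizer and 0.285 with thapsigargin. It did not pass between thapsigargin and untreated (adjusted p = 0.209). XBP1 also held a match, and its total transcript level differed by -0.13 by counts, with a wider gap on TPM (means of 201.3 with dimerizer and 264.6 with thapsigargin). Of the ER chaperones, 5 of 16 with a window held the letters (31.2%). The letters TGACGTGG, the core of the element that XBP1 is known to bind, stood in 13 of the 555 (2.34%), HYOU1, DNAJC10, SSR3, SSR4 and KDELR3 among them, in 2 of the 473 (0.423%) and in 1.0% of tested genes. TGATGCAA, a core of the CEBP-ATF element of ATF4, stood in 1.26% of the 555, 1.27% of the 473 and 0.742% of tested genes, and in 4 of 19 ATF4 and CHOP targets (CHAC1, CEBPG, JDP2 and FGF21). These are descriptions of letters in a short window and not evidence of binding.

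The same direction ran along the secretory route, from entry into the ER to exit towards the Golgi. Of 17 genes of ER entry, translocon and signal peptidase, 16 were lower with dimerizer and 0 higher (median -1.20). SEC61A1, the channel subunit, had 330.4, 334 and 325 CPM with dimerizer, 793, 775 and 754 with thapsigargin and 293, 285 and 292 untreated (-1.23 ± 0.03, adjusted p = 2.77e-55). SEC11C, a catalytic subunit of the signal peptidase, had 25.8, 27.6 and 26.1 against 150.5, 146 and 144 CPM (-2.47 ± 0.07, adjusted p = 3.31e-55). Its sister subunit SEC11A was the member that did not pass, at -0.07 with a 95% interval of -0.18 to 0.03. Of 15 disulfide isomerases and oxidases, 13 were lower and 1, ERP29, was higher (0.40 ± 0.05, adjusted p = 1.85e-11), with a median of -0.92. PDIA3 had 247, 254 and 255 CPM with dimerizer, 966, 969 and 889 with thapsigargin and 342, 328 and 338 untreated, and P4HB had 512, 509 and 509 with dimerizer, 1367, 1363 and 1273 with thapsigargin and 589, 597 and 576 untreated. Both are isomerases that form disulfide bonds in the lumen, both were lowest with dimerizer, and they differed by -1.90 ± 0.05 (adjusted p = 2.46e-58) and -1.39 ± 0.03 (adjusted p = 4.8e-59). ERO1A, the oxidase that CHOP is known to raise, differed by -0.32 ± 0.04 (adjusted p = 3.57e-11).

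N-glycosylation and hexosamine genes were lower in 16 of 18 members and higher in TUSC3 (median -0.73). RPN1, of the oligosaccharyltransferase, had 181, 183 and 182 against 434, 426 and 402 CPM (-1.21 ± 0.04, adjusted p = 1.66e-45) and did not differ from untreated with dimerizer by the test (-0.03, adjusted p = 0.661). GFPT1, the entry enzyme of hexosamine synthesis, had 273, 269 and 257 CPM with dimerizer, 509, 509.5 and 481 with thapsigargin and 118, 115 and 118 untreated, so that it was above untreated in both and further with thapsigargin (-0.91 ± 0.04, adjusted p = 8.39e-39). For ER to Golgi transport, 17 of 19 genes were lower and 1, SEC24B, was higher (median -0.86). SEC24D, a cargo adaptor of COPII coats, had 32.1, 31.4 and 31.0 against 157, 155 and 149 CPM (-2.28 ± 0.04, adjusted p = 5.43e-69), and LMAN1, a cargo receptor, 179.8, 176 and 169 against 671, 674 and 636 (-1.91 ± 0.03, adjusted p = 5.45e-71).

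ER-associated degradation, which clears misfolded proteins, showed 15 of 20 genes lower with dimerizer and 1, NPLOC4, higher (median -1.02). HERPUD1 (chr16:56932048-56944863), a membrane scaffold of that pathway, had 137, 142 and 139 CPM with dimerizer, 295, 288 and 273 with thapsigargin and 53.6, 57.9 and 57.9 untreated. It lay above untreated with dimerizer by 1.31 (adjusted p = 6.42e-39), and the agents differed by -1.03 ± 0.05 (adjusted p = 8.17e-34). SEL1L, the adaptor of the ubiquitin ligase SYVN1, had 275, 273 and 270.4 CPM with dimerizer, 859, 849 and 816 with thapsigargin and 147, 147 and 148 untreated (-1.62 ± 0.03, adjusted p = 8.81e-65). The cytosolic extraction genes of the list stood apart: VCP and FAF2 did not pass, at -0.07 and -0.06, with 95% intervals, before adjustment over genes, of -0.13 to -0.01 and -0.15 to 0.04.

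The 10 sensors and transducers of the unfolded protein response had a median difference of -0.27, with 8 lower with dimerizer and 1, CREB3L1, higher. XBP1 (chr22:28794555-28800597) had 227, 229 and 219 CPM with dimerizer, 245, 253 and 240.2 with thapsigargin and 83.0, 77.4 and 82.1 untreated, and both agents were above untreated, by 1.48 (adjusted p = 7.1e-49) and 1.60 (adjusted p = 2.09e-52). Between agents it differed by -0.13 ± 0.04 (adjusted p = 0.0139), and this call is lost without dimerizer replicate 3 (-0.11, adjusted p = 0.082), without thapsigargin replicate 2 (-0.11, adjusted p = 0.0786) and with no filter on low counts (-0.12, adjusted p = 0.0523). On TPM the gap was wider, with means of 201.3 with dimerizer and 264.6 with thapsigargin. All these values count total XBP1 RNA and do not separate the spliced form that IRE1 makes. ERN1 (IRE1) was 33.6 CPM with dimerizer, 55.8 with thapsigargin and 12.8 untreated on average (-0.73 ± 0.07, adjusted p = 4.53e-17). CREB3L2, an ER-bound transcription factor, had 25.6, 24.0 and 23.8 against 89.9, 85.5 and 81.6 CPM (-1.81 ± 0.06, adjusted p = 8.17e-47), the lowest of the 10.

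BHLHA15 (MIST1, chr7:98211427-98212979), a transcription factor of secretory cells and a known XBP1 target, gave the lowest difference of any gene that met the naming rule. It had 0.485, 0.607 and 0.633 CPM with dimerizer, 11.99, 12.2 and 12.6 with thapsigargin and 0.179, 0.171 and 0.0892 untreated, a 21.2-fold gap (-4.40 ± 0.18, adjusted p = 1.78e-39). Both agents were above untreated at 24 h, where only a few counts per library were seen, so no fold against untreated is given. Untreated wells averaged 0.464 CPM of BHLHA15 at 0 h and 0.773 at 4 h. The dimerizer mean at 24 h (0.575) thus lay within the range of untreated means over time. FICD (chr12:108515185-108525837), the enzyme that AMPylates BiP, had 6.41, 6.10 and 5.76 against 46.3, 46.0 and 42.8 CPM (-2.88 ± 0.08, adjusted p = 5.16e-53). DNAJC12 (chr10:67796665-67838166), a J-domain co-chaperone, had 0.679, 0.607 and 0.691 against 6.55, 8.02 and 6.17 CPM and 0.680, 0.9003 and 0.625 untreated, and its dimerizer and untreated libraries overlapped (-3.38 ± 0.19, adjusted p = 5.1e-30). KCNA1, a potassium channel subunit (-2.95 ± 0.16, adjusted p = 1.1e-31), showed the same layout at 24 h, with 2.47 CPM on average under dimerizer, 19.3 under thapsigargin and 2.38 untreated. Untreated wells had 37.8 CPM of KCNA1 at 0 h, so all 3 groups at 24 h lay below that level. SLC16A12 (chr10:89430299-89556641), a carrier of the monocarboxylate family, and RNASE4 (chr14:20684100-20701215), a secreted ribonuclease, were below untreated with dimerizer and above it with thapsigargin (-3.09 ± 0.11 (adjusted p = 3.7e-45) and -2.94 ± 0.28 (adjusted p = 3.27e-16) between agents). RNASE4 shares exons with ANG, TMC3-AS1 is an antisense gene (-3.22 ± 0.21, adjusted p = 1.71e-25) and DUX4L25 belongs to near-identical repeat copies (-3.96 ± 0.76, adjusted p = 5.67e-06), so the assignment of reads to these 3 is uncertain.

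**Figure D3:**
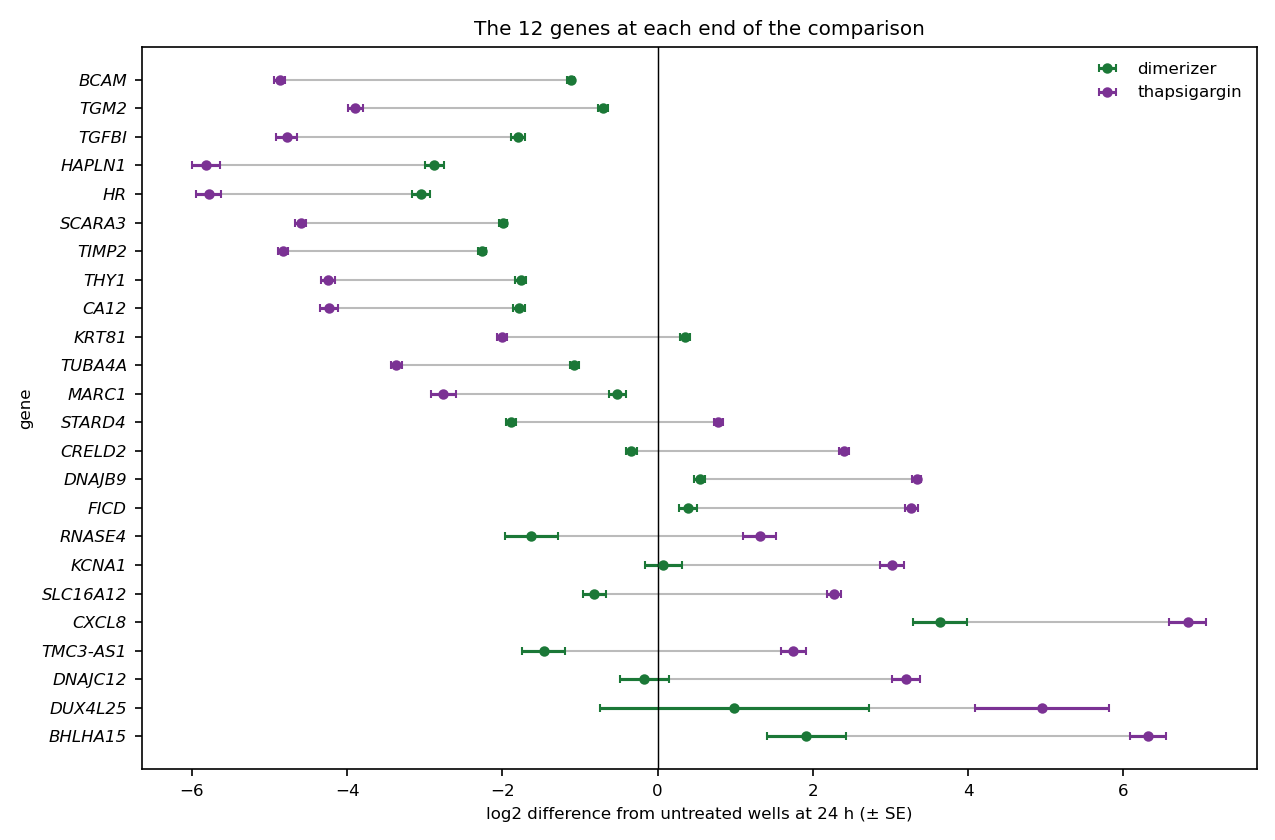
For the 12 genes at each end of the comparison, points give the log2 difference from untreated wells at 24 h (± SE) for dimerizer and for thapsigargin, joined by a line. The upper 12 lie below untreated in both agents, thapsigargin further, except KRT81, which dimerizer left 0.36 above untreated; the lower 12 lie above untreated with thapsigargin.

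Thapsigargin acts directly on calcium handling. ATP2A2 (SERCA2, chr12:110280756-110351093), the pump that thapsigargin inhibits, had 236, 232 and 229 CPM with dimerizer, 355, 357 and 336 with thapsigargin and 233, 237 and 236 untreated. Dimerizer and untreated libraries overlapped (-0.02, adjusted p = 0.77) and thapsigargin was above both; the agents differed by -0.59 ± 0.04 (adjusted p = 4.7e-22). RCAN1, a calcineurin regulator induced by calcium signalling, had 110.4, 109.7 and 103 against 253, 254 and 242 CPM and 42.7, 46.3 and 44.3 untreated (-1.21 ± 0.05, adjusted p = 2.38e-41). ITPR3, a calcium release channel of the ER, went the other way, with 48.8, 48.4 and 46.3 against 17.6, 16.3 and 16.3 CPM (1.52 ± 0.06, adjusted p = 6.02e-43). Of the 18 genes 4 were higher with dimerizer and 9 lower (23.5% and 15.3% over all genes), with a median of -0.15, so that the number higher was near the share over all genes.

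Sterol genes were lower with dimerizer than with thapsigargin and also lower than in untreated wells. STARD4 (chr5:111496033-111512590), which carries cholesterol between membranes, had 11.9, 14.0 and 14.0 CPM with dimerizer, 84.9, 85.8 and 85.1 with thapsigargin and 50.7, 48.6 and 49.1 untreated (-2.67 ± 0.07, adjusted p = 3.8e-57). HMGCS1 (chr5:43289395-43313512), HMG-CoA synthase of the mevalonate pathway, had 76.2, 79.2 and 79.0 CPM with dimerizer, 204, 201 and 196 with thapsigargin and 157, 147 and 157 untreated (-1.36 ± 0.06, adjusted p = 4.06e-39). SREBF2, the transcription factor of the pathway, had 136, 142 and 137 CPM with dimerizer, 300.5, 304 and 289 with thapsigargin and 289, 301 and 282 untreated, and only dimerizer passed the test against untreated (-1.07, adjusted p = 1.06e-49, with 0.03 (adjusted p = 0.375) for thapsigargin).

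Of the 24 sterol genes tested, 21 were lower with dimerizer, 13 of them at least 2-fold, and 1, EBP, was higher (0.34 ± 0.09, adjusted p = 0.00083), with a median of -1.14. Against untreated wells 22 fell and 0 rose with dimerizer (median -0.98), while with thapsigargin 11 rose and 7 fell (median 0.12). CACCCCAC, a sterol element core, stood in the window of 1 of 18 of them, SREBF2, and in 3.32% of tested genes. It stood in 25 of the 473 genes called at least 2-fold higher with dimerizer (5.29%). Of the 555 called at least 2-fold higher with thapsigargin, 11 held it (1.98%). Fatty acid genes followed in part: 5 of 10 were lower and 1, ACLY, was higher (median -0.13). SCD, the desaturase, had 191, 189.6 and 190.2 CPM with dimerizer, 491, 500.0 and 487 with thapsigargin and 348, 369.6 and 369.6 untreated (-1.37 ± 0.04, adjusted p = 1.76e-56). FADS2, another desaturase, had 45.4, 46.5 and 47.8 with dimerizer, 95.1, 88.9 and 87.2 with thapsigargin and 217, 241 and 234 untreated, below untreated in both (-0.96 ± 0.04, adjusted p = 1.08e-36). FASN, the synthase itself, did not pass, at -0.03 with a 95% interval of -0.11 to 0.05.

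**Figure D4:**
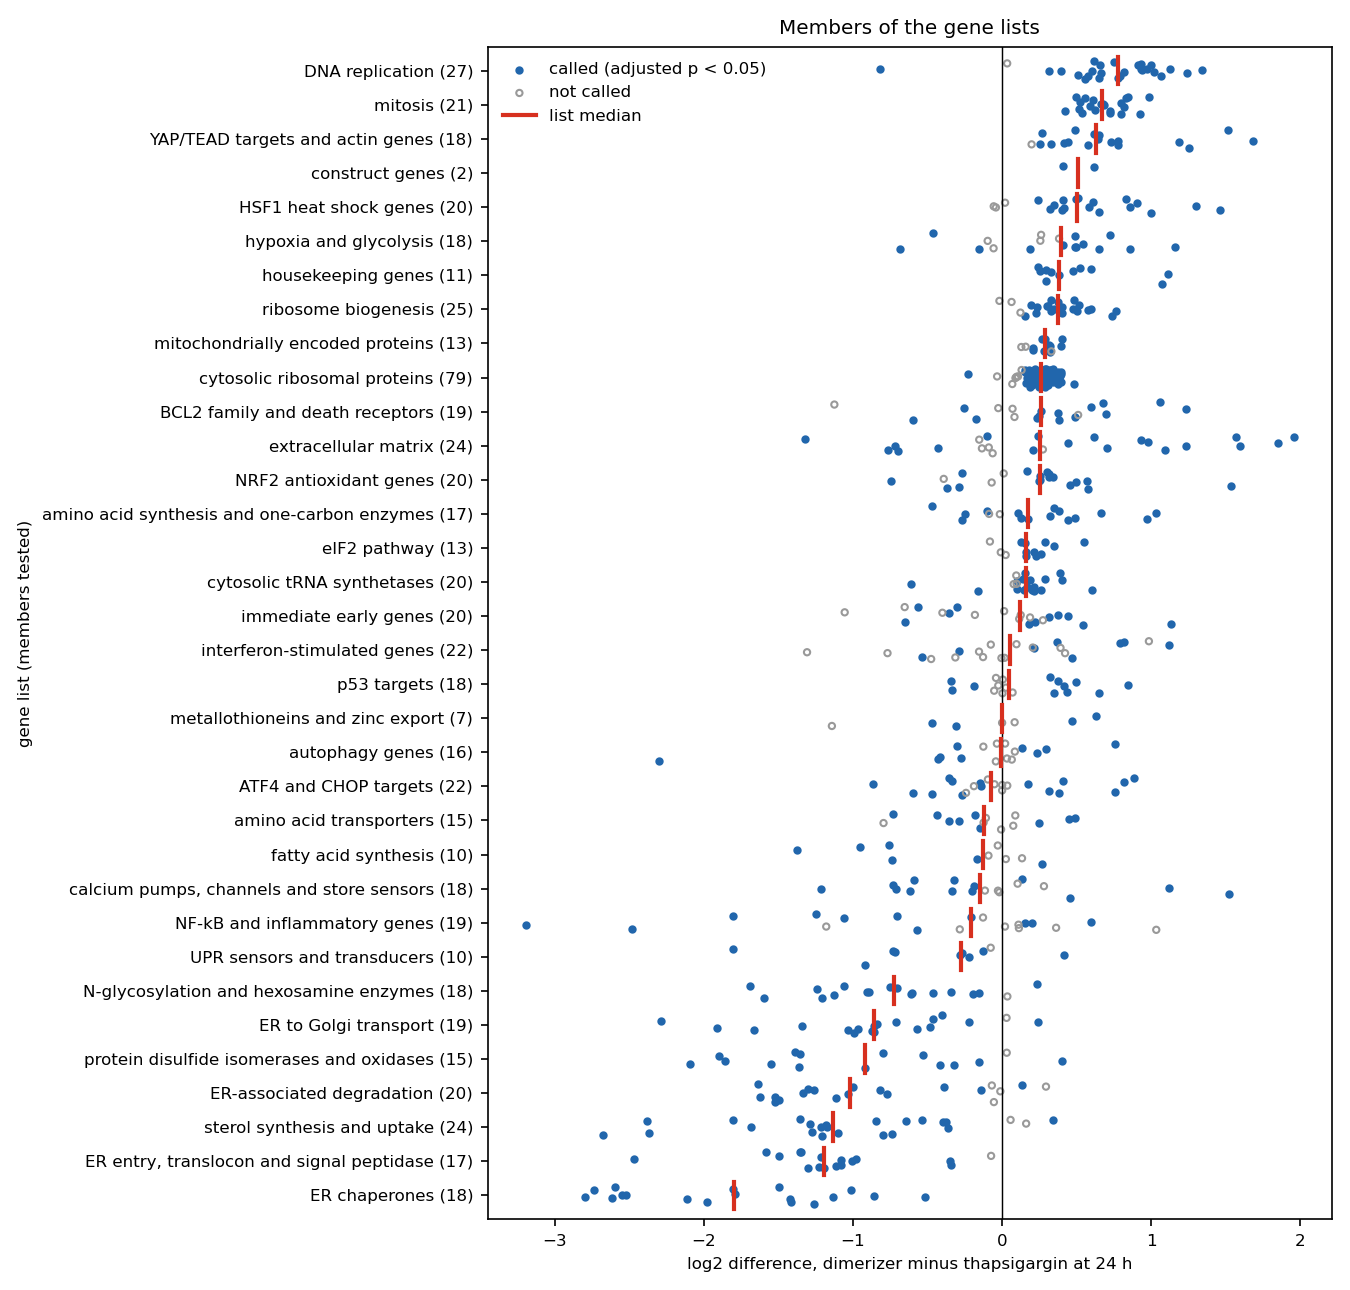
Each point is 1 member of a gene list (the number tested is in brackets), placed by its log2 difference of dimerizer minus thapsigargin at 24 h, filled where it passed the test and open where it did not, with the list median as a bar. The 7 lowest medians are those of sterol genes and of 6 groups of ER folding, entry, glycosylation, export and degradation genes, from -1.80 to -0.73, and the highest are DNA replication (0.78), mitosis (0.67) and YAP/TEAD and actin genes (0.63).

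Several cytokines were higher with thapsigargin, while the NF-kB subunits were split. CXCL8 (IL-8, chr4:73740506-73743716), a neutrophil chemokine, had 15.1, 13.4 and 12.9 CPM with dimerizer, 142, 128 and 109.9 with thapsigargin and 0.966, 1.29 and 1.07 untreated. All 3 groups were apart and the agents differed by -3.19 ± 0.16 (adjusted p = 5.36e-34), or 9.13-fold. IL1A, an alarm cytokine, had 6.36, 8.15 and 6.62 against 41.8, 40.05 and 38.9 CPM (-2.48 ± 0.09, adjusted p = 4.95e-45), and PTGS2 (cyclooxygenase 2) 4.17, 4.48 and 4.55 against 15.4, 15.6 and 15.3 (-1.81 ± 0.19, adjusted p = 6.93e-14). Of 19 genes tested (CXCL1 and IL1B were too low), 8 were lower and 3 higher with dimerizer, with a median of -0.21. The 3 higher were RELA (0.15) and NFKB1 (0.20), subunits of NF-kB, and TNFAIP3, its inhibitor (0.59); the subunits REL (-0.57) and RELB (-0.21) were lower. With log2(TPM + 1) 1 was higher and 10 were lower.

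Proliferation genes were higher with dimerizer than with thapsigargin, all 21 of mitosis and 25 of 27 of DNA replication. TPX2, a spindle assembly factor, had 357, 357 and 350.3 CPM with dimerizer, 241, 239 and 211 with thapsigargin and 549, 551 and 549.6 untreated (0.63 ± 0.04, adjusted p = 1.7e-29). AURKB, a mitotic kinase, had 36.6, 37.5 and 37.1 against 20.3, 19.3 and 17.1 CPM (0.99 ± 0.06, adjusted p = 1.32e-26), and CCNA2, cyclin A2, 81.4, 75.4 and 75.8 against 47.8, 43.0 and 41.6 (0.82 ± 0.05, adjusted p = 4.78e-27). In each of these the dimerizer libraries lay between thapsigargin and untreated. All 21 mitosis genes were higher with dimerizer than with thapsigargin (23.5% over all genes) and did not overlap, with a median of 0.67. Against untreated all 21 fell with both agents, with a median of -0.88 for dimerizer and -1.54 for thapsigargin.

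DNA replication differed from mitosis in its untreated reference. Of 27 genes, 25 were higher with dimerizer than with thapsigargin (median 0.78). Against untreated 9 rose and 10 fell with dimerizer (median -0.04), where 25.0% of all genes rose and 23.1% fell. With thapsigargin 1 rose and 24 fell (median -0.73), where 27.5% of all genes rose and 27.5% fell. RRM2, the ribonucleotide reductase subunit, had 141, 143 and 141 CPM with dimerizer, 55.0, 60.4 and 52.9 with thapsigargin and 259, 256 and 266 untreated (1.34 ± 0.06, adjusted p = 9.94e-40). MCM4, of the replicative helicase, had 197, 189 and 185 with dimerizer, 94.2, 91.9 and 87.8 with thapsigargin and 221, 215 and 220.1 untreated (1.06 ± 0.05, adjusted p = 4.58e-37), and TYMS, thymidylate synthase, differed by 0.91 ± 0.04 (adjusted p = 9.51e-34). CDC6, the licensing factor, was the exception. It averaged 177 CPM with dimerizer, 313 with thapsigargin and 95.9 untreated, higher than untreated in both and further with thapsigargin (-0.82 ± 0.05, adjusted p = 1.54e-29).

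Most genes of the HSF1 heat shock list, which is not limited to cytosolic proteins, took the opposite direction to the ER chaperones. HSPA8, the constitutive Hsp70 of the cytosol, had 962, 999 and 1015 CPM with dimerizer, 512, 513 and 466 with thapsigargin and 1461, 1376 and 1514 untreated (1.00 ± 0.05, adjusted p = 1.35e-34). HSPA1A (chr6:31815464-31817946), the inducible Hsp70, had 107, 101 and 114 CPM with dimerizer, 44.8, 45.7 and 40.2 with thapsigargin and 376, 342 and 346 untreated (1.30 ± 0.11, adjusted p = 1.33e-19), though its reads may be split with the near-identical HSPA1B. CRYAB, a small heat shock protein, had 72.9, 77.1 and 76.2 with dimerizer, 26.4, 28.9 and 27.0 with thapsigargin and 323, 329 and 334 untreated (1.46 ± 0.06, adjusted p = 2.43e-37). In all 3 the order was thapsigargin lowest, then dimerizer, then untreated. Untreated HSPA1A averaged 89.1 CPM at 0 h and 354 at 24 h. Its 24 h mean with dimerizer (107) lay above that 0 h level and with thapsigargin (43.6) below it. Of 20 HSF1 genes 17 were higher with dimerizer and 0 lower (23.5% and 15.3% over all genes), with a median of 0.50. Against untreated at 24 h 15 fell with dimerizer and 19 with thapsigargin, where 23.1% and 27.5% of all genes fell. Under upper quartile scaling 17 were higher and 3 lower.

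The 12 genes at the end that was higher with dimerizer were led by a surface receptor and a transglutaminase. BCAM, a laminin receptor of the cell surface, had 37.5, 39.8 and 39.0 CPM with dimerizer, 3.14, 2.82 and 2.76 with thapsigargin and 82.6, 88.1 and 82.6 untreated, the highest difference of any gene that met the naming rule (3.75 ± 0.08, adjusted p = 3.53e-62, 13.4-fold). TGM2 (chr20:38127387-38166578), transglutaminase 2, had 42.7, 46.6 and 48.2 CPM with dimerizer, 4.71, 4.93 and 5.23 with thapsigargin and 76.6, 74.9 and 71.5 untreated (3.19 ± 0.10, adjusted p = 6.81e-49), and TIMP2 (chr17:78852977-78925387), an inhibitor of matrix proteases, 61.7, 68.2 and 70.0 with dimerizer, 12.5, 11.2 and 10.6 with thapsigargin and 312, 335 and 314 untreated (2.56 ± 0.07, adjusted p = 1.43e-52). These 3 were below untreated in both agents and lowest with thapsigargin. TGFBI, a secreted adhesion protein (2.98 ± 0.17, adjusted p = 8.29e-30), HAPLN1, a link protein of hyaluronan (2.94 ± 0.27, adjusted p = 7.82e-17), and THY1, a surface glycoprotein (2.48 ± 0.11, adjusted p = 2.2e-36), showed that order too. So did HR, a corepressor of nuclear receptors (2.74 ± 0.25, adjusted p = 7.61e-17), SCARA3, a scavenger receptor family member (2.61 ± 0.09, adjusted p = 3.86e-45), CA12, a carbonic anhydrase (2.45 ± 0.15, adjusted p = 1.37e-27), TUBA4A, an alpha-tubulin (2.29 ± 0.08, adjusted p = 3.48e-46), and MARC1, a mitochondrial reductase (2.24 ± 0.17, adjusted p = 4.93e-21). KRT81, a hair keratin with close paralogs that make its read assignment uncertain, had 912, 930.0 and 920.3 CPM with dimerizer, 181, 182 and 176 with thapsigargin and 754, 705 and 698 untreated (2.36 ± 0.07, adjusted p = 7.06e-53), above untreated with dimerizer and below with thapsigargin.

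Among 24 extracellular matrix genes 13 were higher and 6 lower with dimerizer (median 0.26). COL6A3, a collagen VI chain, had 131, 138 and 144 CPM with dimerizer, 41.6, 38.1 and 35.6 with thapsigargin and 148, 143 and 127 untreated. Its dimerizer and untreated libraries overlapped and thapsigargin lay below (1.85 ± 0.09, adjusted p = 1.57e-33). THBS1, thrombospondin 1, had 107, 106 and 108 CPM with dimerizer, 36.3, 36.0 and 34.1 with thapsigargin and 266, 309.8 and 253 untreated, apart in all 3 groups (1.60 ± 0.07, adjusted p = 4.87e-37). COL4A1, a chain of basement membrane collagen, had the highest difference (1.95) and COL1A2, at under 1 CPM in every group, the lowest (-1.32), both named after their values were seen. The members lower with dimerizer also included FBN2, a fibrillin (-0.72), LOX, which cross-links collagen (-0.76), and COL6A2 (-0.43). Of the osteoblast and mesenchymal markers given above, RUNX2, SPP1, COL1A1 and VIM were higher with dimerizer as well and ALPL was lower, and their part was not tested.

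YAP/TEAD targets and actin genes were higher with dimerizer in 17 of 18 members and lower in 0 (median 0.63). TPM1, tropomyosin, had 131, 136 and 133 CPM with dimerizer, 45.4, 50.7 and 44.4 with thapsigargin and 337, 354 and 326 untreated (1.51 ± 0.05, adjusted p = 7.75e-47), and MYH9, non-muscle myosin, 1394, 1308 and 1324 with dimerizer, 618, 610.1 and 546 with thapsigargin and 2106, 2126 and 2066 untreated (1.18 ± 0.04, adjusted p = 1.58e-44). MYL9, its light chain, differed by 1.25 ± 0.05 (adjusted p = 9.47e-38). For these contractile genes dimerizer lay between thapsigargin and untreated, whereas CTGF and CYR61, the 2 classical YAP targets, averaged 243 and 489.7 CPM with dimerizer, above both thapsigargin (182 and 349) and untreated (148 and 310.2).

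The genes of protein synthesis were slightly higher with dimerizer, and these small shifts depend on scaling. Ribosome biogenesis genes were higher in 22 of 25 and lower in 0 (median 0.38), and in 14 and 2 with log2(TPM + 1). NPM1, nucleophosmin, had 1379, 1419 and 1414 CPM with dimerizer, 962, 946 and 882 with thapsigargin and 1188, 1134 and 1196 untreated (0.59 ± 0.04, adjusted p = 5.03e-25). NCL, nucleolin, differed by 0.50 ± 0.04 (adjusted p = 2.74e-23) and BOP1 by 0.76 ± 0.05 (adjusted p = 1.15e-26). Cytosolic ribosomal protein genes, whose reads may be shared with processed pseudogenes, were higher in 72 of 79 with a median of 0.26 and lower in 1, FAU (-0.23). RPL29, RPL5 and RPL4 differed by 0.48 ± 0.05 (adjusted p = 2.33e-13), 0.39 ± 0.05 (adjusted p = 2.17e-12) and 0.33 ± 0.04 (adjusted p = 6.99e-13). Under upper quartile scaling 51 of the 79 were higher and 2 lower, and with log2(TPM + 1) 37 and 4. Mitochondrially encoded genes were higher in 10 of 13 (median 0.29), in 5 under upper quartile scaling and in 1 with log2(TPM + 1). MT-ATP6 differed by 0.39 ± 0.07 (adjusted p = 2.41e-06), and the calls of MT-CO2 (0.32 ± 0.08, adjusted p = 0.000493) and MT-ND3 (0.20 ± 0.05, adjusted p = 0.000392) do not hold on TPM (0.17, adjusted p = 0.168, and 0.06, adjusted p = 0.516). All 11 housekeeping genes were higher with dimerizer (median 0.38), 10 under upper quartile scaling and 9 with log2(TPM + 1). ACTB had 2402, 2328 and 2299 CPM with dimerizer, 1139.5, 1149.8 and 1056 with thapsigargin and 3897, 3846 and 3891 untreated (1.07 ± 0.05, adjusted p = 1.97e-36). TUBB and GAPDH differed by 1.11 ± 0.06 (adjusted p = 6.33e-32) and 0.59 ± 0.03 (adjusted p = 1.32e-34), so that all 3 passed the test between the agents.

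Redox and metabolic genes were split. NQO1, a quinone reductase, and TKT, transketolase, differed by 0.58 ± 0.04 (adjusted p = 3.84e-22) and 0.57 ± 0.04 (adjusted p = 5.63e-27). HMOX1 (chr22:35380361-35394214), heme oxygenase 1, had 61.7, 58.0 and 62.8 CPM with dimerizer, 51.8, 51.0 and 49.7 with thapsigargin and 31.3, 28.4 and 29.5 untreated (0.26 ± 0.08, adjusted p = 0.00534), a call lost under upper quartile scaling (0.16, adjusted p = 0.0879) and on TPM (0.10, adjusted p = 0.355). GCLC and GCLM, the subunits that start glutathione synthesis, were lower with dimerizer (-0.37 and -0.27). Of 20 NRF2 genes 13 were higher and 4 lower (median 0.26), against 8 and 6 with log2(TPM + 1). Hypoxia and glycolysis genes were higher in 10 of 18 and lower in 3 (median 0.39). LDHA, lactate dehydrogenase, had 611, 634 and 632 CPM with dimerizer, 362, 349 and 328 with thapsigargin and 1186, 1160.5 and 1209.8 untreated (0.85 ± 0.03, adjusted p = 6.52e-40). PKM and ENO2, glycolytic enzymes, differed by 0.65 ± 0.03 (adjusted p = 3.06e-36) and 1.16 ± 0.05 (adjusted p = 9.41e-38), while HK2, hexokinase 2, was lower with dimerizer (-0.46).

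The remaining lists had no single direction, and over all genes 23.5% were higher with dimerizer and 15.3% lower. WIPI1, a phosphoinositide-binding autophagy protein, had 20.2, 21.4 and 21.2 CPM with dimerizer, 106, 103 and 102 with thapsigargin and 13.9, 18.3 and 14.7 untreated (-2.30 ± 0.06, adjusted p = 6.05e-55). It stood apart from its list, in which 4 of 16 were higher and 5 lower (median -0.01): MAP1LC3B differed by -0.41 ± 0.03 (adjusted p = 1.31e-20) and the lysosomal protease CTSB by 0.76 ± 0.05 (adjusted p = 9.79e-25). Immediate early genes were higher in 7 of 20 and lower in 4 (median 0.12, and -0.02 with log2(TPM + 1)), and in 5 and 7 under upper quartile scaling, with NR4A1, a nuclear receptor, at 1.13 ± 0.10 (adjusted p = 9.05e-18), FOSL2 at 0.54 ± 0.07 (adjusted p = 1.51e-11) and JUND at -0.36 ± 0.05 (adjusted p = 1.42e-08). Of 18 p53 targets 8 were higher and 3 lower (median 0.05, and -0.05 under upper quartile scaling). PLK2 and FDXR differed by 0.84 ± 0.07 (adjusted p = 1.96e-18) and 0.65 ± 0.07 (adjusted p = 1.53e-14), MDM2 by -0.34 ± 0.04 (adjusted p = 1.16e-13), and CDKN1A (p21) did not pass, at 0.00 with a 95% interval of -0.08 to 0.09. In the BCL2 family and death receptors 11 of 19 were higher and 3 lower (median 0.26), against 3 and 3 with log2(TPM + 1). BOK and BAX, which promote outer mitochondrial membrane permeability, differed by 0.70 ± 0.07 (adjusted p = 1.43e-14) and 0.38 ± 0.05 (adjusted p = 1.07e-11). Of 22 genes induced by interferon, 6 were higher and 2 lower (median 0.06, and -0.05 under upper quartile scaling), so that the number higher was near the share over all genes. OAS3 differed by 0.79 ± 0.13 (adjusted p = 1.21e-07) and STAT2 by -0.54 ± 0.06 (adjusted p = 2.11e-14). Of 7 metallothionein and zinc export genes 2 were higher and 2 lower, MT1E and MT1X at 0.47 ± 0.07 (adjusted p = 2.08e-09) and -0.47 ± 0.08 (adjusted p = 8.46e-07), and SLC30A1, the zinc exporter, was at -0.31 ± 0.05 (adjusted p = 4.27e-08). The list's median was 0.00, and -0.06 with log2(TPM + 1).

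The difference between the agents was then set against that at 4 h, measured in other wells. At 4 h 13.0% of genes were higher with dimerizer and 11.6% lower. From 4 to 24 h the difference changed upwards, towards dimerizer, in 17.6% of genes and downwards in 8.86%, tested as an interaction. HSPA5 had 9213 ± 127 CPM at 4 h (mean ± SD, n = 3), 13412 at 8 h and 6399 at 24 h with thapsigargin, and 935 ± 22.6 at 4 h and 1096 at 24 h with dimerizer. Untreated wells had 995 at 4 h, so that the dimerizer wells were not above them then. The gap therefore narrowed from -3.30 at 4 h to -2.55 at 24 h, a change of 0.75 (adjusted p = 1.46e-21). DDIT3 narrowed more: with thapsigargin it went from 495 CPM at 4 h to 161 at 24 h, while with dimerizer it was 84.2 and 88.3, a change of 1.69 (adjusted p = 1.21e-32). HERPUD1 changed by 1.83 (adjusted p = 1.02e-40) and HMGCS1 by 1.17 (adjusted p = 1.59e-24), the latter from 1217 CPM at 4 h with thapsigargin. CXCL8 took an uneven course with thapsigargin, 964 CPM at 4 h, 19.1 at 16 h and 127 at 24 h, and its 16 h mean lay near that with dimerizer (10.5). In untreated wells CXCL8 fell from 129 CPM at 0 h and 106 at 4 h to 1.11 at 24 h. The thapsigargin mean at 24 h thus lay near the untreated level at 0 h.

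**Figure D5:**
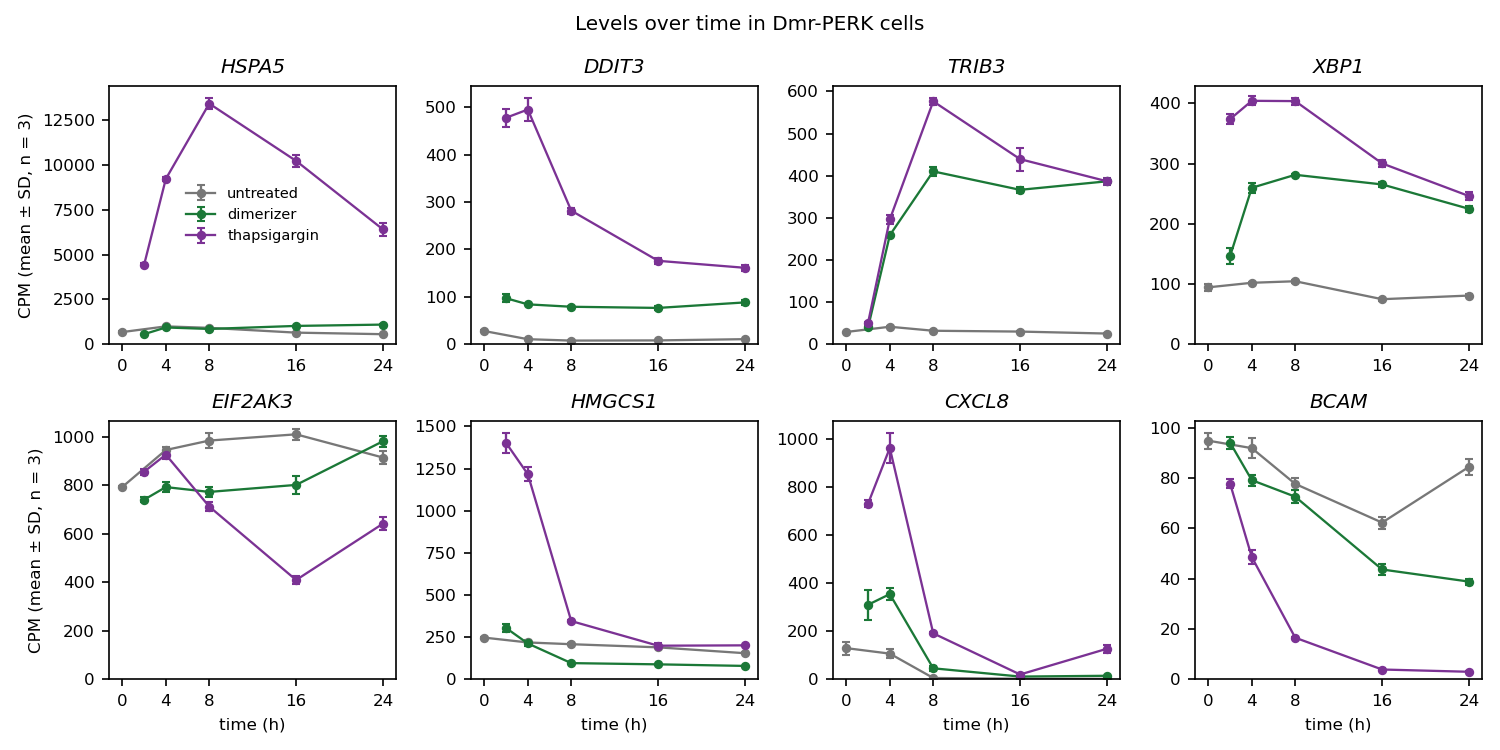
For 8 genes, CPM (mean ± SD, 3 libraries a point) is drawn against time in h for untreated, dimerizer and thapsigargin wells of the Dmr-PERK line, each panel with its own axis from 0. HSPA5 peaks at 8 h with thapsigargin and stays above dimerizer at 24 h, DDIT3 declines with thapsigargin towards the dimerizer level, and BCAM declines with both, further with thapsigargin.

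The lists of ER folding and secretion had lower medians at 24 h than at 4 h, although single members such as HSPA5 narrowed. ER chaperones were lower with dimerizer in 17 of 18 at 4 h (median -1.64, and -1.80 at 24 h), and to 24 h 6 changed upwards and 10 downwards. Translocon and signal peptidase genes were lower in 15 of 17 at 4 h with a median of -0.52 (-1.20 at 24 h), and 15 changed downwards and 0 upwards by 24 h. LMAN1 went from -0.58 to -1.91, a change of -1.33 (adjusted p = 1.21e-44), and PDIA3 from -0.94 to -1.90 (-0.96, adjusted p = 1.95e-24). Of the sterol list 19 of 24 were lower with dimerizer at 4 h and 0 higher.

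Mitosis genes differed little between the agents at 4 h, and replication genes somewhat more. Of the 21 mitosis genes 0 were higher and 1 was lower with dimerizer at 4 h (median 0.04), and all 21 changed upwards by 24 h; in DNA replication 6 of 27 were higher and 3 lower at 4 h (13.0% and 11.6% over all genes), and all 27 changed upwards. The lowest of these at 4 h was CDC6 at -1.29 (adjusted p = 2.41e-43). TPX2 differed by 0.00 (adjusted p = 0.995) at 4 h and changed by 0.62 (adjusted p = 1.1e-19). HSF1 genes changed upwards in 18 of 20 and downwards in 0. BCAM, TIMP2 and HAPLN1 at the dimerizer end changed by 3.04, 2.46 and 2.66, from 0.70, 0.09 and 0.28 at 4 h. At the other end BHLHA15 and KCNA1 changed by -2.99 and -2.32, from -1.42 and -0.63, and FICD did not change by the test (0.24, adjusted p = 0.188). TRIB3 was slightly lower with dimerizer at 4 h (-0.20, adjusted p = 0.00425) and its change did not pass (0.20, adjusted p = 0.0534).

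Thapsigargin in Parental cells, from separate libraries, gave values that can stand beside those of Dmr-PERK cells; the difference between the lines was not tested. There 26.8% of genes rose and 27.9% fell against untreated Parental wells. HSPA5 rose by 3.64 in Parental and by 3.51 in Dmr-PERK cells, DDIT3 by 4.18 and 3.90, and TRIB3 by 4.28 and 3.93. ASNS rose by 1.47 in Parental and 2.27 in Dmr-PERK cells, and HMGCS1 by 1.05 and 0.38. CXCL8 rose by 2.84 in Parental and 6.83 in Dmr-PERK cells, the widest gap among these. The Dmr-PERK value is against untreated wells whose CXCL8 mean was 129 CPM at 0 h and 1.11 at 24 h. ER chaperones rose in 18 of 18 in Parental cells (median 2.34) and in 17 of 18 in Dmr-PERK cells (median 1.92). Sterol genes rose in 18 of 24 in Parental cells (median 0.68) and in 11 of 24 in Dmr-PERK cells (median 0.12), and all 21 mitosis genes fell in both.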

How the data were processed

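RNA sequencing libraries were made from wells of 24-well plates (3 per group; NEBNext directional kit, NovaSeq). The labels do not say that wells were separate cultures, so p-values measure the spread between wells, which may be technical. The authors deposited estimated counts per gene and TPM. Reads were quantified with Salmon 0.9.1 after FastQC 0.11.5 on GRCh38, per the submitters' processing notes; no source used here says whether strand was used. Of the non-zero estimated counts 49.5% were whole (tolerance 1e-05), so the deposited estimated counts were rounded to whole numbers here before the fit. The deposited TPM values have a floor of 0.063122.

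Genes were filtered with filterByExpr (minimum count 10), scaled with TMM and fitted over all 120 libraries in 40 groups with the quasi-likelihood test of edgeR 4.0.16 (R 4.3.3), with Benjamini-Hochberg adjustment, two-sided, over 26998 genes. Standard errors come from the fitted F and 95% intervals from its degrees of freedom. Alternatives used limma 3.58.1 on log2 TPM, DESeq2 1.42.0, other scalings, filters, replicate blocks and sample sets. The edgeR step was tested on simulated data. Depth was 12.9 to 56.5 M counts, and intervals cover counting and well error only. Named genes are the 12 at each end among called genes with at least 5 CPM in the higher group, no overlap between groups and a unique symbol that is not clone-type, up to 3 members of each of 34 lists by adjusted p, a panel of 17 genes, and exceptions to a list's direction; others are list members given as examples. The comparison, members and lists were chosen with earlier results of these data known. Positions are from GENCODE 29 (GRCh38), where 53330 of 57665 identifiers matched with their version. The symbols of 1911 genes are shared by several identifiers, and such symbols were left out of the ends. Some members' own values are not reported here; the list counts include them.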

Additional observations from a re-analysis of the deposited data

Results flagged for a closer look

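For 6 named genes the difference between dimerizer and thapsigargin passed the test at both 4 h and 24 h with opposite signs, and the change itself passed the interaction test. ATF4 went from -0.17 at 4 h to 0.17 at 24 h, a change of 0.35 (adjusted p = 2.54e-09), although its call at 24 h is not made on TPM. EIF2AK3, which shares sequence with the construct, went from -0.23 to 0.61, a change of 0.84. NR4A1, an immediate early nuclear receptor, went from -0.48 to 1.13, a change of 1.62. The replication gene RRM2 went from -0.13 to 1.34 (1.47) and the matrix gene THBS1 from -0.17 to 1.60 (1.77). MT1X, a metallothionein, moved the other way, from 0.28 to -0.47 (-0.75). The 4 h and 24 h wells are separate libraries.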

How the results depend on the processing

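Of 135 named genes, 127 had the same call for dimerizer minus thapsigargin in all 16 alternative settings, and 8 did not, ATF4, TRIB3, XBP1, HMOX1, MARS, MT-ND3 and MT-CO2 among them. TRIB3 turned to -0.071 in the fit of the 6 libraries alone (adjusted p = 0.0176, and 0.0269 with the replicate block) and the cause was not tested; that fit has 4 residual degrees of freedom. The median of the tRNA synthetases turned to -0.033 and -0.034 with limma on log2(TPM + 1) and log2(TPM + 0.1). Under those 2 settings 3114 and 3180 genes were called higher with dimerizer in place of 6337, and 2015 and 2004 changed upwards from 4 to 24 h in place of 4758. Called genes at least 2-fold higher with dimerizer numbered 193 and 499 under them and 225 with a test against the 2-fold limit, in place of 807; those lower numbered 519 with log2(TPM + 1), 1197 with log2(TPM + 0.1), 1370 under upper quartile scaling and 243 with the test against the limit, in place of 1060. Upper quartile scaling gave 634 at least 2-fold higher. The cause of the TPM differences was not tested. Leaving out 1 library at a time gave 5459 to 6222 genes higher and 3495 to 3878 lower with dimerizer, 742 to 805 and 812 to 1164 at 2-fold, 6247 to 6534 and 5596 to 5923 for dimerizer against untreated, 6835 to 7176 and 6870 to 7169 for thapsigargin, and 4030 to 4712 and 2075 to 2305 for the change. Correlations of deviations between same-numbered wells were -0.018, -0.013 and -0.024 for dimerizer and thapsigargin. They were 0.034, 0.029 and 0.022 for dimerizer and untreated, each the best match, and -0.021, 0.025 and 0.006 for thapsigargin and untreated. Values this small cannot decide whether replicate numbers pair the wells. With the replicate block 6332 genes were higher and 4155 lower with dimerizer than with thapsigargin. Genes of few counts are limited by depth, as the low end of the all-genes plot shows.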
